A study of Mus musculus with 12 samples.

Results

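The p53 target genes described here are 36 genes that act beyond the classic arrest and death effectors of p53, in DNA repair, metabolism and redox balance, signaling, growth control and membrane or lysosomal function. They were chosen as a list of mouse gene symbols, with earlier results of these data known, and matched to the Ensembl identifiers of the counts. All 36 were found among 37991 identifiers, and 35 had counts. The RNA-seq data come from primary MEFs, the fibroblasts grown out of mouse embryos of the FVB strain at embryonic day 13.5, used at passage 3. The MEFs were wild-type or carried the homozygous E2f1 3KR/3KR knock-in (3KR), in which the lysines of the transcription factor E2F1 that are acetylated after DNA damage are replaced by arginine in every cell from the germline on. Each genotype was left untreated or given neocarzinostatin (NCS), a radiomimetic drug that breaks both DNA strands, at 250 ng/ml for 3 h. Each of the 4 groups held 3 samples, numbered 1 to 3 in the labels, which do not say whether the samples came from separate embryos, so the p-values measure the spread between these samples.

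p53 is a transcription factor that MDM2 keeps at a low level, and DNA breaks stabilize it through the ATM and CHK2 kinases. It binds a paired decamer motif near its target genes and raises their transcription. Best known are the targets that stop the cell cycle or start apoptosis, but p53 also raises genes that remove lesions from DNA, lower reactive oxygen, restrain growth factor and Akt signaling and set lysosomal turnover. In MEFs the p53 response to breaks is fast and leads mostly to arrest and not to death. The genotypes addressed whether acetylation of E2F1 bears on the response to breaks.

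Each sample had from 33203757 to 45279321 counts on genes. The fibroblast markers were abundant in every sample, and E2f1, which carries the mutation, had normalized counts of 1042 to 1296 over all 12 samples, so its mRNA level does not tell the genotypes apart. The sample numbered 3 stood apart from the other two in wild-type MEFs, untreated and after NCS, its chi-square per gene against numbers 1 and 2 being 7.34 to 9.48, where all other pairs of a group gave 2.02 to 2.33. Calls of the 36 genes that changed without both of these samples are given with the FDR without them. Xist, the RNA of the inactive X chromosome, had normalized counts of 30590.1 to 35635 in 3KR and 32.3 to 62.5 in wild-type MEFs, and the Y-linked Ddx3y had means of 11.1 untreated and 11.2 after NCS in 3KR MEFs and of 5513 and 5681 in wild-type MEFs, so the genotypes also differed in sex and both differences cannot be told apart. Whether the counting used the strand is not given in the sources used here. For 7 genes of the list, Ddb2, Gadd45a, Ckm, Plk3, Sulf2, Epha1 and Tnfrsf18, exons overlap those of another counted gene on the opposite strand, by 84 to 652 bases, and their values are less certain.

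To see which of these genes carry the letters of the p53 motif at their start, promoters were searched in windows of 300 bases, 250 before and 50 after each RefSeq start site in GRCm38.p6. Windows were found for 32 of the 36 genes, and none was held for Perp, Xpc, Rrm2b and Ddb2. The search was for the p53 consensus, 2 decamers with the core C and G in place and at most 1 base between them, allowing 3 of the 20 bases to differ. It matches its own reverse complement, so a hit stands for both strands. It was present in a window of 7 of the 32 genes (21.88%), and in 3.27% of all 27025 genes with a window. With at most 2 mismatches, a limit chosen after seeing the data, 1 gene of the list was left, Rps27l, beside 0.807% of all genes. The windows below hold the match and the bases around it at 3 genes that rose in at least 1 genotype (Rps27l, Aen and Dcxr) and at 2 that fell in at least 1 (Sesn1 and Tigar), written 5′ to 3′ on the strand of the gene, with the match in capitals.
Rps27l: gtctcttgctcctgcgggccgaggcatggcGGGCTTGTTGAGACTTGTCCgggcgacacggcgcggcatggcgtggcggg
Aen: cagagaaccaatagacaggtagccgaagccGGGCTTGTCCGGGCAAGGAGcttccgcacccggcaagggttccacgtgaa
Dcxr: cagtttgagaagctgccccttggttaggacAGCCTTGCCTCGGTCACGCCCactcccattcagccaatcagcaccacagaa
Sesn1: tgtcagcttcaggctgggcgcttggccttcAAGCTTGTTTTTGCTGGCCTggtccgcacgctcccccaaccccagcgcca
Tigar: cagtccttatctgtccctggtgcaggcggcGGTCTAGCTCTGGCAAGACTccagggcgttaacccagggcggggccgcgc

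The Rps27l stretch lies at chr9:66946266-66946345 on the plus strand, and its match, with 1 mismatch, runs from position -117 to -98 relative to the start site. The Aen stretch is chr7:78895907-78895986 on the plus strand, with 3 mismatches at -121 to -102. The Dcxr stretch is chr11:120727356-120727436 on the minus strand, with 3 mismatches and 1 base between the decamers at -122 to -102. The Sesn1 stretch is chr10:41887236-41887315 on the plus strand, with 3 mismatches at -173 to -154, and that of Tigar is chr6:127109716-127109795 on the minus strand, with 3 mismatches at -213 to -194. The remaining matches were in windows of Gpx1 and Tnfrsf18. A match describes the letters only, and matches lay at genes that rose, fell and did neither. The windows do not cover introns or distant sites.

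Levels between genes were compared per length, as RPKM (counted reads divided by library size and by exon length). In untreated wild-type MEFs the 35 genes spanned from 0.546 RPKM for Ddb2 to 156 for Gpx1. Highest were Gpx1 (156 ± 8.04, SD, n = 3), the ribosomal protein gene Rps27l (138 ± 17.2) and the Akt inhibitor Phlda3 (132 ± 1.95), and the range of 1 SD around Rps27l reached into those of both others. Lowest were Ddb2 (0.546 ± 0.0585), Tnfrsf18 (0.895 ± 0.169) and Rrm2b (1.63 ± 0.148). After NCS, Phlda3 was the highest in wild-type MEFs, at 207 ± 9.10 RPKM. Ckm, muscle creatine kinase, had 0 counts in all 12 samples, which by counting error allows a level of up to 0.0663 to 0.0904 CPM, that of 3 counts, and it could not be tested. The other 35 genes passed the low-count filter.

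**Figure D1:**
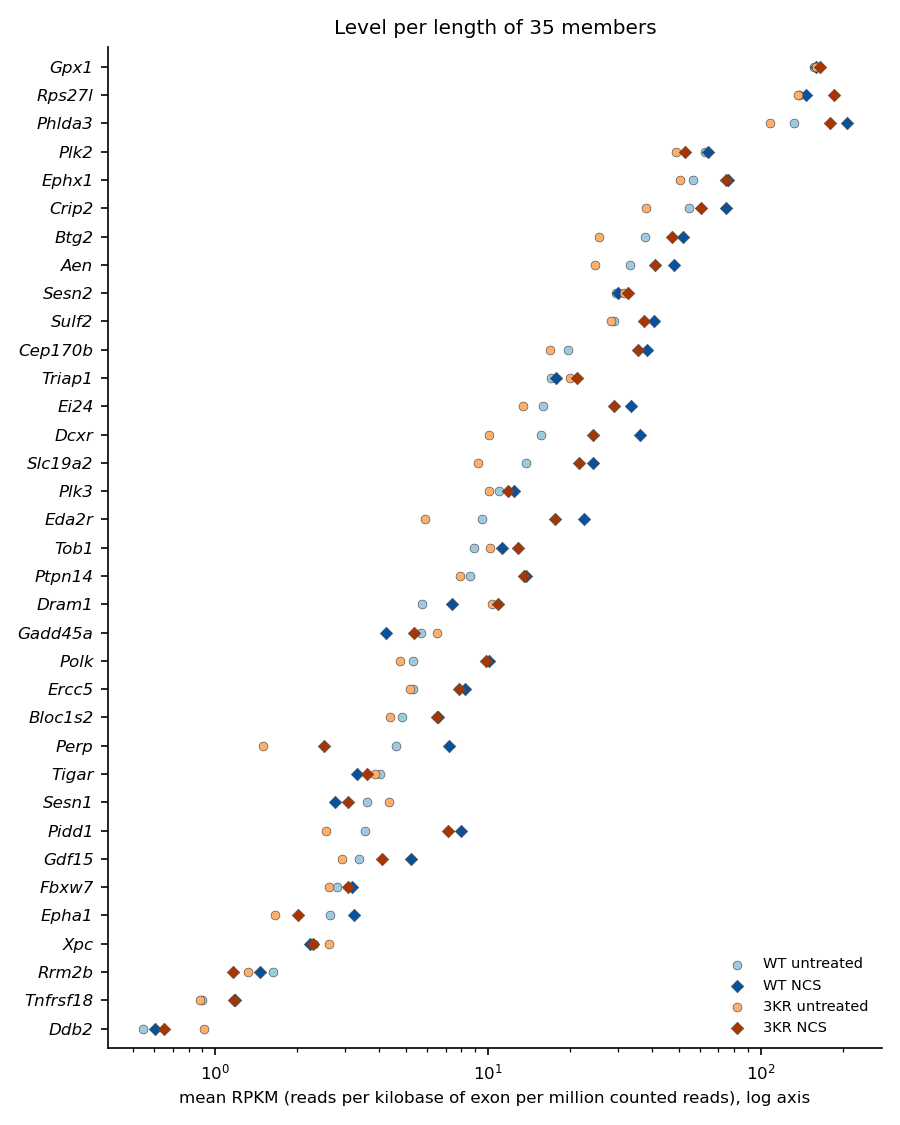
Mean RPKM of the 35 genes with counts (log x axis), one row a gene ordered by untreated wild-type MEFs, with circles for untreated and diamonds for NCS-treated MEFs in blue (wild-type) and orange (3KR). The genes run from 0.546 RPKM for Ddb2 to 156 for Gpx1 in untreated wild-type MEFs, and Perp is the gene whose 3KR points lie furthest to the left of its wild-type points.

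The first question was which of these genes NCS changed within 3 h in each genotype. In wild-type MEFs 23 of the 35 tested genes rose, 3 fell and 9 did not pass the test, by the edgeR quasi-likelihood test with a false discovery rate (FDR) of 0.05 over all 15327 tested genes. Of all tested genes 14.3% rose and 12.4% fell. In 3KR MEFs 24 rose and 2 fell, beside 15.8% and 15.0% of all tested genes. The median log2 fold change of the 35 genes was 0.46 in wild-type and 0.48 in 3KR MEFs, and that of all tested genes was 0.01 and -0.00. The 2 comparisons share no samples: 22 genes rose in both genotypes, Gadd45a and Sesn1 fell in both, Dram1 rose and Tigar fell with a call in wild-type MEFs alone, and Plk2 and Rps27l rose with a call in 3KR MEFs alone. Of these 4, the test of the difference between genotypes passed for Dram1 and Rps27l and not for Tigar and Plk2. Neither genotype gave a call for Ddb2, Gpx1, Rrm2b, Sesn2, Tnfrsf18, Triap1 and Xpc. Without both wild-type samples numbered 3, Gpx1, Plk2 and Rps27l also passed as risen in wild-type MEFs (edgeR FDR = 4.85e-04, 0.00275 and 0.00335). In the same fit, which shares 1 estimate of the spread over all groups, Sesn2 and Gpx1 passed as risen (FDR = 0.00796 and 1.41e-04) and Ddb2 as fallen (FDR = 0.0481) in 3KR MEFs.

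All 3 NCS samples lay above all 3 untreated samples for 22 genes in wild-type MEFs, where 18.6% of all tested genes did so, and for 28 genes in 3KR MEFs, where 24.0% did so. The largest fitted rises in wild-type MEFs were those of Eda2r, Dcxr, Pidd1, Ei24 and Cep170b, which were above 1 on the log2 scale in both genotypes, and in 3KR MEFs the rise of Slc19a2 (1.28) was above those of Ei24 and Cep170b (1.16 and 1.11). Some cell type markers also changed after NCS. Of all tested genes 14.3% rose and 12.4% fell in wild-type MEFs, and 15.8% and 15.0% in 3KR MEFs. Of 10 fibroblast markers 5 rose and 1 fell in wild-type MEFs, and 1 rose and 6 fell in 3KR MEFs. Among markers of other cell types, 2 of 10 macrophage markers rose in wild-type MEFs, and in 3KR MEFs 1 of 5 tested skeletal muscle markers rose, while 2 of 8 Schwann cell and neural crest, 1 of 10 macrophage and 1 of 4 tested epithelial markers fell. Of 4 tested endothelial and 2 tested T cell markers 0 changed in either genotype. The part of these markers in the response was not tested.

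**Figure D2:**
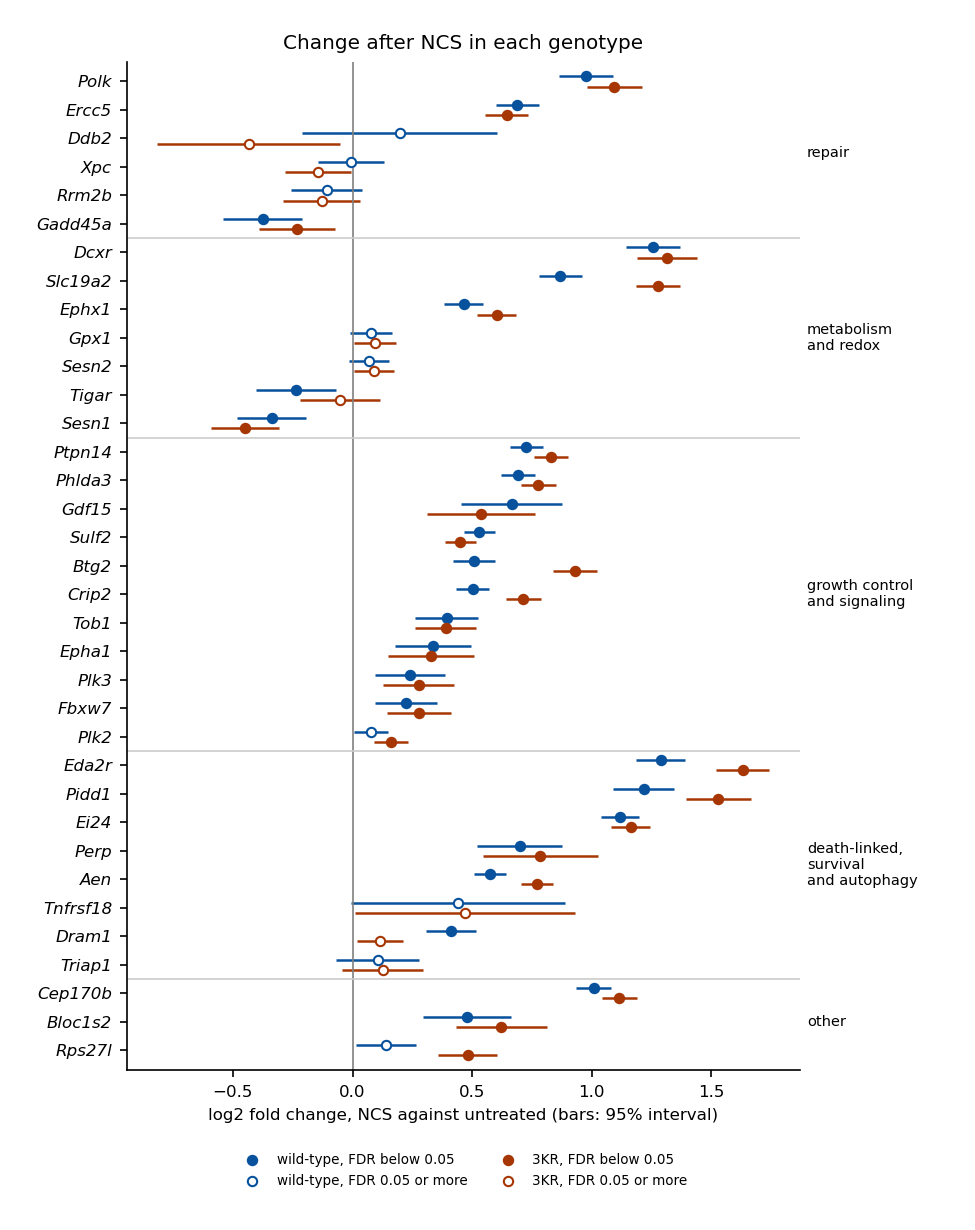
Log2 fold change after NCS (x axis) for the 35 tested genes, grouped by role, in wild-type (blue) and 3KR MEFs (orange), with bars for the 95% interval and filled points where the edgeR FDR was below 0.05. Most filled points lie to the right of 0, and Gadd45a, Sesn1 and, in wild-type MEFs, Tigar lie to the left.

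Among the 6 repair genes, 2 rose and 1 fell in both genotypes. The shares of all tested genes were 14.3% risen and 12.4% fallen in wild-type MEFs, and 15.8% and 15.0% in 3KR MEFs. Polk, the translesion DNA polymerase kappa, had normalized counts (counts divided by the size factor of the sample) of 1118, 1104 and 1130.2 in untreated wild-type MEFs, 2335, 2256 and 2012 in NCS-treated wild-type MEFs, 1028, 936 and 1001 in untreated 3KR MEFs and 2182, 2002 and 2137 in NCS-treated 3KR MEFs. The NCS samples did not overlap with the untreated ones in either genotype, and Polk rose by 0.97 ± 0.05 (log2 fold change ± SE) in wild-type and 1.09 ± 0.06 in 3KR MEFs (edgeR FDR = 3.01e-12 and 5.40e-13). Ercc5, the XPG endonuclease of nucleotide excision repair, had normalized counts of 1146, 1204 and 1172 in untreated wild-type MEFs, 1869, 1913 and 1909 in NCS-treated wild-type MEFs, 1167, 1102 and 1145 in untreated 3KR MEFs and 1807, 1786 and 1736 in NCS-treated 3KR MEFs. Again every NCS sample was above every untreated one, with rises of 0.69 ± 0.04 and 0.64 ± 0.04 (edgeR FDR = 1.77e-11 and 5.82e-11). Gadd45a, a small stress protein tied to arrest and repair, moved the other way. Its normalized counts were 376, 396 and 365 in untreated wild-type MEFs, 276, 324 and 278 in NCS-treated wild-type MEFs, 437, 439 and 412 in untreated 3KR MEFs and 366, 358 and 370.1 in NCS-treated 3KR MEFs. The NCS samples were the lower ones in both genotypes, and Gadd45a changed by -0.38 ± 0.08 in wild-type (edgeR FDR = 9.49e-04) and -0.23 ± 0.08 in 3KR MEFs (FDR = 0.0250). The 3KR call was lost without the untreated samples numbered 1 or 2 or the NCS samples numbered 1 or 2, with edgeR FDRs of 0.0749, 0.0747, 0.0591 and 0.0718, which leaves Sesn1 as the 1 gene that fell.

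The damage recognition genes of nucleotide excision repair did not pass the test. Xpc stood at 469.7 to 493 normalized counts in untreated and 460.1 to 499 in NCS-treated wild-type MEFs, and its log2 fold change was -0.01 (95% interval -0.15 to 0.13) there and -0.14 (-0.28 to -0.01) in 3KR MEFs. Ddb2, the ultraviolet damage binding subunit, was the lowest gene of the list per length, with 51.4 to 62.9 and 54.7 to 69.7 normalized counts in wild-type MEFs and 77.3 to 103 and 51.7 to 78.0 in 3KR MEFs. Its log2 fold changes, 0.20 (-0.21 to 0.60) and -0.43 (-0.82 to -0.05), had the widest intervals of the repair genes. Rrm2b, the p53-inducible subunit of ribonucleotide reductase, which supplies DNA precursors, had values of -0.11 (-0.26 to 0.04) and -0.13 (-0.29 to 0.03). In wild-type MEFs the untreated and NCS samples overlapped for all 3 genes. In 3KR MEFs they overlapped for Ddb2 and Rrm2b, and all NCS samples of Xpc were below the untreated ones. Ddb2 passed as fallen in 3KR MEFs without untreated 3KR sample 3 (edgeR FDR = 0.0432). It also did so without both wild-type samples numbered 3 (FDR = 0.0481) and with the sample number as a block (FDR = 0.0460).

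Of the 7 tested metabolism and redox genes, 3 rose and 2 fell in wild-type MEFs, beside 14.3% and 12.4% of all tested genes. In 3KR MEFs 3 rose and 1 fell, beside 15.8% and 15.0%. Dcxr, the dicarbonyl and L-xylulose reductase, had normalized counts of 653, 653 and 720.3 in untreated wild-type MEFs, 1603, 1702 and 1545 in NCS-treated wild-type MEFs, 448, 416 and 431 in untreated 3KR MEFs and 1084, 1078 and 1059.8 in NCS-treated 3KR MEFs. The groups were apart, and Dcxr rose by 1.26 ± 0.05 and 1.32 ± 0.06 on the log2 scale (edgeR FDR = 3.74e-14 and 7.80e-14). Slc19a2, a thiamine transporter, had normalized counts of 1896, 2039 and 2051 in untreated wild-type MEFs, 3773, 3731 and 3446 in NCS-treated wild-type MEFs, 1296, 1336 and 1338 in untreated 3KR MEFs and 3106, 3207 and 3293 in NCS-treated 3KR MEFs. It rose by 0.87 ± 0.04 in wild-type and 1.28 ± 0.05 in 3KR MEFs (edgeR FDR = 3.89e-13 and 6.56e-16), from a lower start in 3KR MEFs. Ephx1, the microsomal epoxide hydrolase, had normalized counts of 4029, 4281 and 4191 in untreated wild-type MEFs, 5889.9, 5942 and 5461 in NCS-treated wild-type MEFs, 3628, 3763 and 3699.8 in untreated 3KR MEFs and 5334, 5696 and 5794 in NCS-treated 3KR MEFs. Its rises of 0.46 ± 0.04 and 0.60 ± 0.04 were also without overlap (edgeR FDR = 3.66e-09 and 4.05e-11).

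The sestrins are stress-induced inhibitors of the growth kinase mTOR. Sesn1 had normalized counts of 572, 509 and 540.2 in untreated wild-type MEFs, 454, 410.3 and 425 in NCS-treated wild-type MEFs, 664, 632 and 638 in untreated 3KR MEFs and 465, 443 and 505 in NCS-treated 3KR MEFs. All NCS samples were below all untreated ones in each genotype, and Sesn1 fell, with log2 fold changes of -0.34 ± 0.07 and -0.45 ± 0.07 (edgeR FDR = 7.38e-04 and 2.02e-05). Sesn2 ranged from 3792 to 4045 in untreated to 3832 to 4322 in NCS-treated wild-type MEFs, with log2 fold changes of 0.07 (95% interval -0.02 to 0.15) and 0.09 (0.00 to 0.17) that did not pass the test. Tigar, a phosphatase that lowers glycolytic flux, fell in wild-type MEFs from 572, 533 and 567 to 418, 498 and 506 normalized counts, a log2 fold change of -0.24 ± 0.08 (edgeR FDR = 0.0306). That call was lost without untreated wild-type sample 1 or 3 or NCS wild-type sample 1 (FDR = 0.0994, 0.0517 and 0.189). In 3KR MEFs Tigar differed by -0.05 (-0.22 to 0.11). Gpx1, the glutathione peroxidase and the highest gene of the list per length in untreated wild-type MEFs, had log2 fold changes of 0.08 (-0.01 to 0.17) and 0.09 (0.00 to 0.18) without a call. With the sample number as a block in wild-type MEFs its adjusted p was 0.0156 in edgeR.

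Of the growth control and signaling genes, 10 of 11 rose in wild-type and all 11 in 3KR MEFs, beside 14.3% and 15.8% of all tested genes. By edgeR, by DESeq2 or at an unadjusted p under 0.05, 0 fell in either genotype. Their log2 fold changes in wild-type MEFs ran from 0.08 for Plk2 to 0.73 for Ptpn14. Ptpn14, a tyrosine phosphatase that restrains YAP, had normalized counts of 4372, 4146 and 4536 in untreated wild-type MEFs, 7096, 7151 and 7407 in NCS-treated wild-type MEFs, 3961, 3969 and 3943 in untreated 3KR MEFs and 7044, 6968 and 7047 in NCS-treated 3KR MEFs. It rose by 0.73 ± 0.03 and 0.83 ± 0.03 (edgeR FDR = 1.20e-13 and 1.10e-14), and the groups did not overlap. Phlda3, which blocks Akt at the membrane, had normalized counts of 7615, 7833 and 7922 in untreated wild-type MEFs, 12579, 13205 and 12028 in NCS-treated wild-type MEFs, 6294, 6220.2 and 6412 in untreated 3KR MEFs and 10659, 10693 and 11027 in NCS-treated 3KR MEFs. Its rises were 0.69 ± 0.03 and 0.78 ± 0.04 (edgeR FDR = 4.82e-13 and 6.23e-14), with all NCS samples above the untreated ones. Sulf2, an extracellular sulfatase that edits heparan sulfate, had normalized counts of 6422, 6281 and 6604 in untreated wild-type MEFs, 9313, 9295 and 9344 in NCS-treated wild-type MEFs, 6236, 6314 and 6112 in untreated 3KR MEFs and 8367, 8690.0 and 8403 in NCS-treated 3KR MEFs. The NCS samples were again the higher ones, by 0.53 ± 0.03 and 0.45 ± 0.03 (edgeR FDR = 6.11e-12 and 9.21e-11).

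Btg2 and Tob1 belong to one family of antiproliferative adaptors of mRNA deadenylation, and both rose. Btg2 had normalized counts of 3611, 3819 and 4274 in untreated wild-type MEFs, 5474, 5626 and 5564 in NCS-treated wild-type MEFs, 2696, 2593 and 2606 in untreated 3KR MEFs and 5055, 4938 and 5014 in NCS-treated 3KR MEFs. The rise was 0.51 ± 0.04 in wild-type and 0.93 ± 0.04 in 3KR MEFs (edgeR FDR = 4.08e-09 and 1.75e-13), with no overlap between untreated and NCS samples. Crip2, a LIM domain protein, had normalized counts of 4264, 4229 and 4477 in untreated wild-type MEFs, 6026, 6205 and 6191 in NCS-treated wild-type MEFs, 2990.0, 3061 and 2881 in untreated 3KR MEFs and 4776, 4920.2 and 4936 in NCS-treated 3KR MEFs. It rose by 0.50 ± 0.03 and 0.71 ± 0.03 (edgeR FDR = 6.04e-11 and 2.01e-13), and again no sample of one treatment overlapped with the other. Tob1 rose by 0.39 ± 0.06 in wild-type and 0.39 ± 0.06 in 3KR MEFs. Gdf15, a secreted stress cytokine, rose by 0.67 ± 0.10 and 0.54 ± 0.11 from 203 to 267 normalized counts in untreated wild-type MEFs. Epha1, an Eph receptor tyrosine kinase, rose by 0.34 ± 0.08 and 0.33 ± 0.09.

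The polo-like kinases are mitotic and stress kinases. Plk2, with 10309 to 11158 normalized counts in untreated wild-type MEFs, had log2 fold changes of 0.08 ± 0.03 in wild-type (edgeR FDR = 0.0978) and 0.16 ± 0.03 in 3KR MEFs (FDR = 9.62e-04), and with the sample number as a block the wild-type value passed too (FDR = 0.00920). Without the untreated wild-type sample numbered 3 it also passed (FDR = 0.00341). Plk3 rose by 0.24 ± 0.07 and 0.28 ± 0.07, and Fbxw7, the substrate receptor of a ubiquitin ligase that removes growth-promoting proteins, by 0.22 ± 0.06 and 0.28 ± 0.06. Of the called genes of the group, this pair had the highest FDRs in wild-type MEFs. Plk3 lost its call without untreated wild-type sample 1 or 2, NCS wild-type sample 3, or all 3KR samples (edgeR FDR = 0.127, 0.0664, 0.0527 and 0.0735), and Fbxw7 lost it without NCS wild-type sample 3 (FDR = 0.0528).

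Of the 8 genes linked to death, survival and autophagy, 6 rose in wild-type and 5 in 3KR MEFs, beside 14.3% and 15.8% of all tested genes. By edgeR, by DESeq2 or at an unadjusted p under 0.05, 0 fell in either genotype. Eda2r, the X-linked receptor for ectodysplasin A2, had the largest rise of the list in both genotypes. Its normalized counts were 2282, 2134 and 1948 in untreated wild-type MEFs, 5448, 5256 and 4899 in NCS-treated wild-type MEFs, 1259.7, 1314 and 1318 in untreated 3KR MEFs and 4215, 3896 and 3925 in NCS-treated 3KR MEFs. The groups were far apart, with rises of 1.29 ± 0.05 and 1.63 ± 0.05 (edgeR FDR = 6.24e-15 and 3.18e-16). Pidd1, the scaffold of the PIDDosome, which activates caspases, had normalized counts of 583, 566 and 668 in untreated wild-type MEFs, 1382, 1359 and 1488 in NCS-treated wild-type MEFs, 404, 461 and 434 in untreated 3KR MEFs and 1282, 1249.6 and 1209.7 in NCS-treated 3KR MEFs. It rose by 1.22 ± 0.06 and 1.53 ± 0.07 (edgeR FDR = 5.79e-13 and 2.39e-14), again without overlap. Ei24, an endoplasmic reticulum protein tied to autophagy, had normalized counts of 2927, 2800.0 and 3041 in untreated wild-type MEFs, 6389, 6418 and 6253 in NCS-treated wild-type MEFs, 2447, 2304 and 2576 in untreated 3KR MEFs and 5479, 5408 and 5500.4 in NCS-treated 3KR MEFs. The spread within each group was small beside the rises of 1.12 ± 0.04 and 1.16 ± 0.04 (edgeR FDR = 1.24e-15 and 5.70e-16), and Ei24 had the lowest p of the list for NCS in wild-type MEFs.

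Aen, an apoptosis-enhancing nuclease whose promoter stretch is shown above, had normalized counts of 7485, 7124 and 7246 in untreated wild-type MEFs, 11046, 11012 and 10611 in NCS-treated wild-type MEFs, 5481, 5387 and 5266 in untreated 3KR MEFs and 9242, 9235 and 9011 in NCS-treated 3KR MEFs. It rose without overlap, by 0.58 ± 0.03 and 0.77 ± 0.03 (edgeR FDR = 2.72e-12 and 1.62e-14). Perp, a membrane protein of desmosomes that also serves p53-dependent death, was at a much lower level, with normalized counts of 349.6, 356 and 307 in untreated wild-type MEFs, 554, 552 and 546 in NCS-treated wild-type MEFs, 124, 90.5 and 115 in untreated 3KR MEFs and 201, 190.2 and 177 in NCS-treated 3KR MEFs. Perp rose after NCS in both genotypes, by 0.70 ± 0.09 and 0.78 ± 0.12 (edgeR FDR = 1.26e-06 and 1.28e-05), and still every NCS-treated 3KR sample stayed below every untreated wild-type sample. Dram1, a lysosomal membrane protein that promotes autophagy, had normalized counts of 655, 656 and 663 in untreated wild-type MEFs, 891, 861 and 886 in NCS-treated wild-type MEFs, 1138, 1180.4 and 1223 in untreated 3KR MEFs and 1272, 1281 and 1273 in NCS-treated 3KR MEFs. Here the samples did not overlap in either genotype, but Dram1 rose by 0.41 ± 0.05 in wild-type MEFs (edgeR FDR = 1.19e-06), and its log2 fold change in 3KR MEFs, 0.11 ± 0.05, did not pass the test (FDR = 0.0697). The 3KR value passed with at least 10 counts required in every sample and with only the 6 samples compared (edgeR FDR = 0.0483 and 0.0418). Triap1, an inhibitor of apoptosis, had log2 fold changes of 0.11 (95% interval -0.07 to 0.28) and 0.13 (-0.04 to 0.30). Tnfrsf18, the receptor GITR known from T cells, stood at 44.5 to 62.1 normalized counts in untreated wild-type MEFs, with values of 0.44 (-0.01 to 0.89) and 0.47 (0.01 to 0.93). Without NCS 3KR sample 3 it passed as risen in 3KR MEFs, by 0.65 (edgeR FDR = 0.0428). Of 7 T cell markers, Cd3e and Cd8a were at 0 and Cd3d and Cd4 at or under 3 counts in all samples. Lck had 37.8 to 55.8 and Ptprcap 4.05 to 13.9 normalized counts over all samples, and Foxp3 0 to 5.46.

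The remaining genes of the list have other roles. Cep170b, a centrosome and microtubule protein, had normalized counts of 5772, 5888 and 6189.9 in untreated wild-type MEFs, 11763, 11809 and 12409.7 in NCS-treated wild-type MEFs, 5023, 5213 and 4935 in untreated 3KR MEFs and 10679, 11272 and 10861 in NCS-treated 3KR MEFs. It rose without overlap by 1.01 ± 0.04 and 1.11 ± 0.04 (edgeR FDR = 1.24e-15 and 2.82e-16). Bloc1s2, a subunit of a complex for lysosome-related organelles, had normalized counts of 360.4, 318 and 303 in untreated wild-type MEFs, 475, 499 and 402 in NCS-treated wild-type MEFs, 287, 297 and 296 in untreated 3KR MEFs and 490.1, 425 and 437 in NCS-treated 3KR MEFs. Its rises were 0.48 ± 0.09 and 0.62 ± 0.09 (edgeR FDR = 2.59e-04 and 1.31e-05), and the groups did not overlap. Rps27l, the p53-induced copy of a ribosomal protein and the gene with the closest motif match, had normalized counts of 4497, 4539 and 3658 in untreated wild-type MEFs, 5036, 4731 and 4266 in NCS-treated wild-type MEFs, 4237, 4116 and 4217 in untreated 3KR MEFs and 5790.4, 5876 and 5865 in NCS-treated 3KR MEFs. The wild-type samples overlapped between treatments, both samples numbered 3 being the lowest of their group, and the 3KR samples did not. Rps27l changed by 0.14 ± 0.06 in wild-type (edgeR FDR = 0.0898) and rose by 0.48 ± 0.06 in 3KR MEFs (FDR = 1.14e-06). With the sample number as a block the wild-type value passed (FDR = 1.44e-04), as it did without both wild-type samples numbered 3 (FDR = 0.00335). Its close relative Rps27 can share reads with it, so the values of Rps27l are uncertain to that extent.

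**Figure D3:**
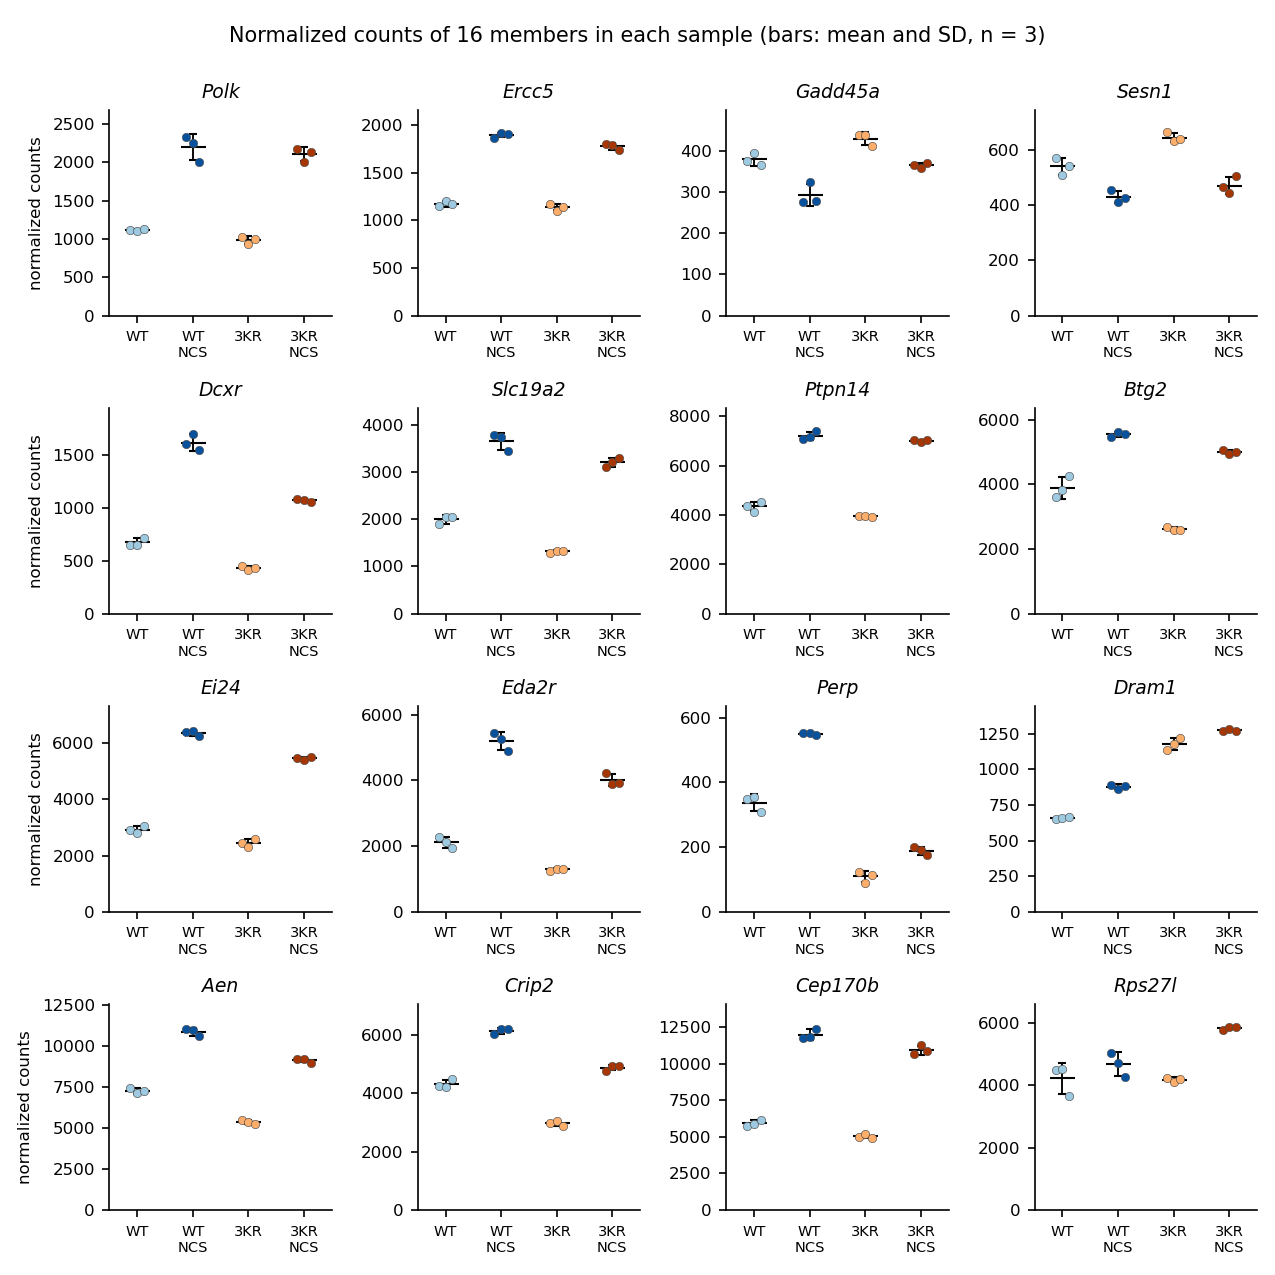
Normalized counts (y axis, from 0) of 16 genes of the list in each of the 12 samples, with points for samples and bars for the mean and SD of 3 samples, in wild-type (blue) and 3KR MEFs (orange), untreated (light) and after NCS (dark). The NCS points of Polk, Dcxr and Eda2r lie clear above the untreated ones in both genotypes, those of Gadd45a and Sesn1 lie below, and the 3KR points of Perp, at 90.5 to 124 and 177 to 201, lie below every wild-type point.

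The second question was how 3KR MEFs differed from wild-type MEFs in the level of these genes. Without treatment 17 of the 35 were lower in 3KR MEFs and 5 were higher (edgeR FDR of 0.05), where 23.6% of all tested genes were lower and 22.1% higher. After NCS 16 were lower and 6 higher, with 23.6% and 22.9% of all tested genes. The median log2 fold change of the list was -0.17 untreated and -0.09 after NCS, and that of all tested genes was -0.00 and 0.00. Between them the 2 comparisons use all 12 samples, each sample once. Of the 35 genes, 14 were lower in both, namely Aen, Btg2, Cep170b, Crip2, Dcxr, Eda2r, Ei24, Epha1, Perp, Phlda3, Pidd1, Plk2, Rrm2b and Slc19a2, and Dram1, Tob1 and Triap1 were higher in both. Calls untreated and not after NCS were those of Ephx1, Polk and Ptpn14 (lower) and of Ddb2 and Sesn1 (higher). Calls after NCS and not before were those of Gdf15 and Sulf2 (lower) and of Gadd45a, Rps27l and Sesn2 (higher). Several of these splits rest on the wild-type samples numbered 3. Without both, Polk and Ephx1 passed as lower after NCS too (edgeR FDR = 0.0167 and 0.0261). Untreated, Sesn2 then passed as higher (FDR = 8.18e-04), Rps27l as lower (-0.11 on the log2 scale, FDR = 8.87e-04), and Triap1 lost its call (FDR = 0.127).

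By role, the lower genes untreated were 2 of 6 for repair, 3 of 7 for metabolism and redox, 6 of 11 for growth control, 5 of 8 for death and survival and 1 of 3 for the others. Higher untreated were 1 of 6, 1 of 7, 1 of 11, 2 of 8 and 0 of 3, in the same order. The shares of all tested genes were 23.6% lower and 22.1% higher. Perp differed most, with mean normalized counts of 338 ± 26.5 (SD, n = 3) in untreated wild-type and 109.7 ± 17.3 in untreated 3KR MEFs, and 551 ± 3.85 and 189 ± 11.9 after NCS. The 3KR level was 32.5% of the wild-type level untreated and 34.4% after NCS, a log2 fold change of -1.63 ± 0.11 and -1.54 ± 0.09 (edgeR FDR = 6.67e-12 and 2.41e-12). Dram1 differed most in the other direction. Its means were 658 ± 4.39 and 1180.4 ± 42.6 untreated and 879 ± 15.9 and 1275 ± 5.08 after NCS, with log2 fold changes of 0.84 ± 0.05 and 0.54 ± 0.05 (edgeR FDR = 9.76e-13 and 2.00e-09), and untreated 3KR samples were above NCS-treated wild-type samples. Crip2 was at 68.9% and 79.4% of the wild-type level, with -0.54 ± 0.03 and -0.33 ± 0.03 (edgeR FDR = 4.43e-12 and 1.63e-08). For Dcxr the shares were 63.9% and 66.4%, with -0.65 ± 0.06 and -0.59 ± 0.05 (edgeR FDR = 6.83e-09 and 2.00e-09). In all 4 genes the samples of the genotypes did not overlap, which was common among the 15327 tested genes. Untreated, 4132 of them were higher and 4072 lower in 3KR MEFs without overlap. After NCS these numbers were 4136 and 4191.

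Among the other lower genes, Epha1 had log2 fold changes of -0.69 ± 0.08 untreated and -0.70 ± 0.08 after NCS, Rrm2b of -0.33 ± 0.07 and -0.35 ± 0.08, and Plk2 of -0.38 ± 0.03 and -0.30 ± 0.03. Eda2r (-0.72 ± 0.05 and -0.37 ± 0.05), Slc19a2 (-0.60 ± 0.05 and -0.19 ± 0.04), Btg2 (-0.57 ± 0.04 and -0.15 ± 0.04), Pidd1 (-0.49 ± 0.07 and -0.18 ± 0.06) and Aen (-0.44 ± 0.03 and -0.25 ± 0.03) had values closer to 0 after NCS. Phlda3 (-0.31 ± 0.04 and -0.22 ± 0.03), Ei24 (-0.26 ± 0.04 and -0.22 ± 0.04) and Cep170b (-0.24 ± 0.04 and -0.13 ± 0.03) were also lower at both times. Ddb2 was higher in untreated 3KR MEFs, by 0.72 ± 0.19, at 99.8, 103 and 77.3 against 51.4, 62.9 and 54.9 normalized counts (edgeR FDR = 0.00277). Sesn1 was higher by 0.25 ± 0.07 untreated, and after NCS Gadd45a was higher by 0.32 ± 0.08 and Rps27l by 0.32 ± 0.06. The last was at 124.9% of the wild-type level, while untreated levels overlapped through wild-type sample 3, at 3658 normalized counts.

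Some calls between genotypes rested on single samples. Untreated, Triap1 (0.21 ± 0.08) and Tob1 (0.18 ± 0.06) lost theirs without untreated 3KR sample 1 (edgeR FDR = 0.0570 and 0.0636), which leaves 3 higher genes, and without untreated wild-type sample 3 (FDR = 0.245 and 0.103). Triap1 also lost it without untreated 3KR sample 2 or 3 (FDR = 0.153 and 0.0577), Tob1 without untreated wild-type sample 2 or 3KR sample 3 (FDR = 0.0532 and 0.0726), and Polk (-0.18 ± 0.06) without untreated 3KR sample 2 (FDR = 0.0790). After NCS the call of Sesn2 (0.10 ± 0.04, edgeR FDR = 0.0497) was lost without NCS wild-type sample 1 or 2 or any NCS 3KR sample (FDR from 0.0520 to 0.279) and by DESeq2 (FDR = 0.0626). Triap1 (0.23 ± 0.08), Tob1 (0.18 ± 0.06) and Pidd1 lost theirs without NCS wild-type sample 3 (FDR = 0.123, 0.0852 and 0.0923), Triap1 also without NCS wild-type or 3KR sample 2 (FDR = 0.0582 and 0.0812), Tob1 without NCS 3KR sample 1 (FDR = 0.139) and Pidd1 without NCS 3KR sample 3 (FDR = 0.0729).

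Markers of some other cell types moved with genotype. Of all tested genes 22.1% were higher and 23.6% lower in untreated 3KR MEFs, and 22.9% and 23.6% after NCS. The summed normalized counts of 10 macrophage markers were 3842 to 4851 in wild-type and 7203 to 7884 in 3KR samples, and 9 of the 10 were higher in 3KR MEFs in both treatments. The sum of 8 Schwann cell and neural crest markers was 6213 to 6672 in wild-type and 1212 to 1414 in 3KR samples. Of these 8 markers 6 were lower. The sum of 9 skeletal muscle markers was 5253 to 5538 and 1992 to 2274, with 3 of 5 tested lower. Most of it was Des, at 4478 to 4711 in wild-type and 1523 to 1627 in 3KR samples. Myod1 and Myog had 0 to 9.13 and 0 to 13.3 normalized counts over all samples. Myf5 was at or under 3 counts in every sample. The sum of 8 epithelial markers, a cell type that expresses Perp, was 100.5 to 113 in wild-type and 97.2 to 151 in 3KR samples. Of 4 tested, 3 were higher and 1 lower untreated, and 2 were higher and 1 lower after NCS. Krt5 was at or under 3 counts throughout. Of 10 fibroblast markers 8 were higher and 2 lower untreated, and 7 were higher and 2 lower after NCS. In both treatments 1 of 4 tested endothelial markers was lower and 0 of 2 tested T cell markers changed. The part of all these markers in the differences between genotypes was not tested. In bulk RNA, fewer cells of a type and less RNA per cell cannot be told apart.

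**Figure D4:**
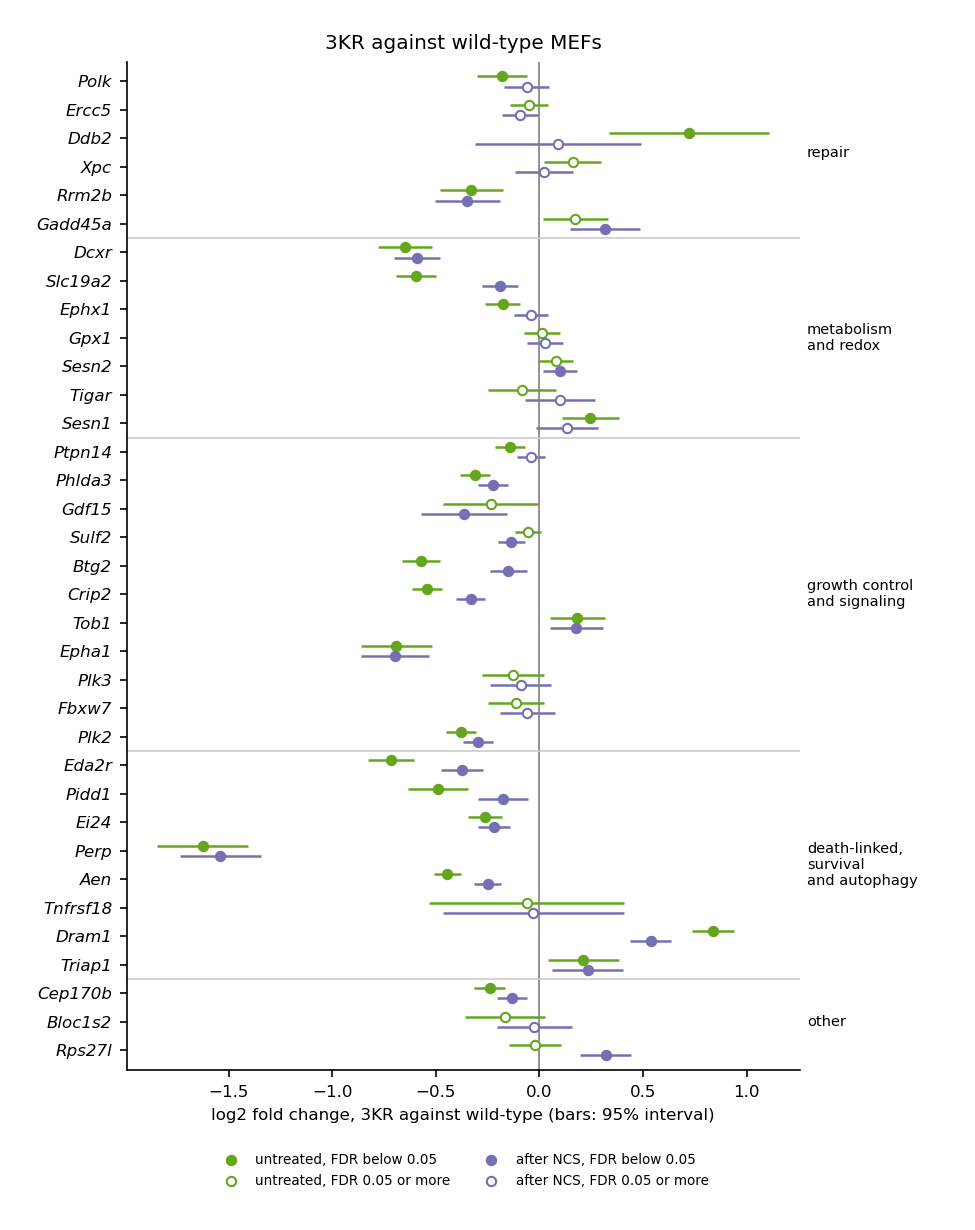
Log2 ratio of the level in 3KR to that in wild-type MEFs (x axis) for the 35 tested genes, grouped by role, untreated (green) and after NCS (purple), with bars for the 95% interval and filled points where the edgeR FDR was below 0.05. Perp lies furthest to the left, at -1.63 and -1.54, and Dram1 lies to the right at 0.84 and 0.54.

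The third question was whether the response to NCS differed between genotypes, tested as the log2 response in 3KR MEFs minus that in wild-type MEFs. Of the 35 genes 6 had a larger rise in 3KR MEFs and 1 a smaller one (edgeR FDR of 0.05), while 1.86% and 1.87% of all tested genes passed in these directions. The difference was 0.42 ± 0.06 for Btg2 (edgeR FDR = 1.84e-04), 0.41 ± 0.06 for Slc19a2 (FDR = 2.83e-04) and 0.34 ± 0.07 for Eda2r (FDR = 0.00710). As means, Btg2 rose 1.42-fold in wild-type and 1.90-fold in 3KR MEFs, Slc19a2 1.83-fold and 2.42-fold, and Eda2r 2.45-fold and 3.09-fold. Each started lower in untreated 3KR MEFs, at 67.4%, 66.3% and 61.1% of the wild-type level, and was at 90.1%, 87.7% and 77.1% after NCS. The difference and both genotype comparisons are made from the same samples and are not separate evidence.

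The difference also passed for Crip2 (0.21 ± 0.05, edgeR FDR = 0.0129), Aen (0.19 ± 0.05, FDR = 0.0150) and Rps27l (0.34 ± 0.08, FDR = 0.0219). Dram1, at -0.30 ± 0.07 (edgeR FDR = 0.0130), was the gene with the smaller rise in 3KR MEFs, 1.08-fold against 1.34-fold in wild-type MEFs. Pidd1, at 0.31 ± 0.09 (95% interval 0.12 to 0.50), missed the threshold (FDR = 0.0577), and with the sample number within genotype as a block it passed (FDR = 0.0105). It also passed by the DESeq2 Wald test (FDR = 0.0408). In edgeR it passed with no low-count filter (FDR = 0.0271) and with at least 10 counts required in every sample (FDR = 0.0351). Without untreated wild-type sample 2 or NCS wild-type sample 3 it passed too (edgeR FDR = 0.0397 and 0.0244). Of the repair genes 0 passed by edgeR or DESeq2 and 1, Ddb2, was at an unadjusted p under 0.05. Of the rises above 1 on the log2 scale in both genotypes, those of Ei24, Dcxr and Cep170b had differences with intervals of -0.07 to 0.16, -0.11 to 0.23 and 0.00 to 0.21.

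Untreated 3KR sample 3 decided several of these calls. Without it 3 genes passed with a larger rise and 0 with a smaller one, and Crip2, Aen and Dram1 had edgeR FDRs of 0.0626, 0.0646 and 0.0540. Aen also lost its call without untreated wild-type sample 1 or NCS 3KR sample 1 (FDR = 0.0514 and 0.0554). Rps27l lost it without untreated wild-type sample 1 or 2 or any 3KR sample, with FDRs from 0.0517 to 0.0682, and by DESeq2 (FDR = 0.0711), and kept it without both wild-type samples numbered 3. Without that pair Sulf2 also passed with a smaller rise in 3KR MEFs (edgeR FDR = 0.0373), and Pidd1 and Cep170b with a larger one (FDR = 0.0249 and 0.0391).

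**Figure D5:**
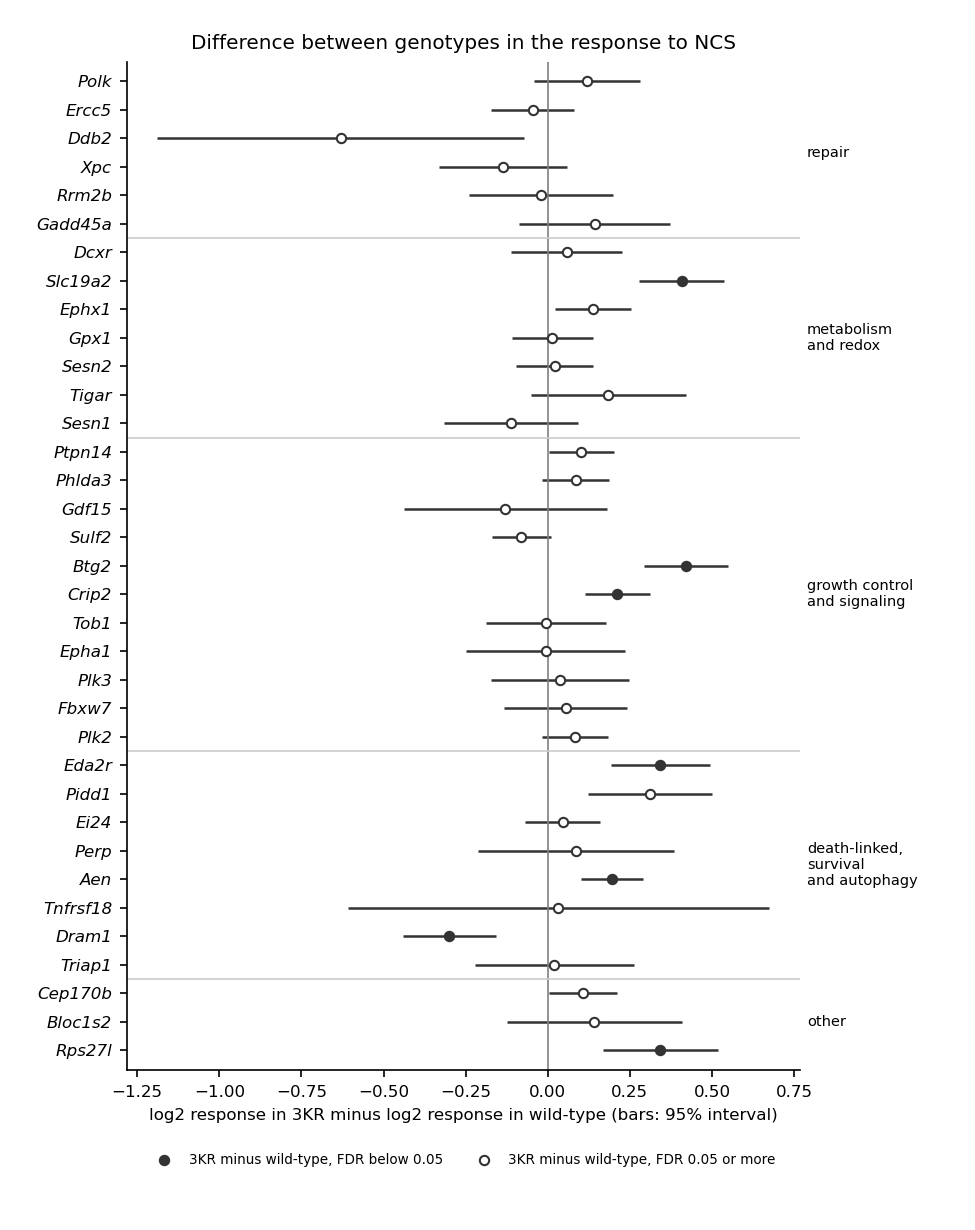
Log2 response to NCS in 3KR minus that in wild-type MEFs (x axis) for the 35 tested genes, grouped by role, with bars for the 95% interval and filled points where the edgeR FDR was below 0.05. Btg2 and Slc19a2 lie furthest to the right among the filled points, at 0.42 and 0.41, and Dram1 is the filled point to the left, at -0.30.

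Other genes of the p53 pathway were read from lists of related function, also chosen with earlier results of these data known. Of all tested genes 14.3% rose and 12.4% fell after NCS in wild-type MEFs, and 15.8% and 15.0% in 3KR MEFs. Of 16 core genes, among them p53 itself, its feedback inhibitors and the arrest and death effectors, 12 rose and 0 fell after NCS in each genotype by edgeR (0 also by DESeq2 and at an unadjusted p under 0.05), with a median log2 fold change of 0.68 in wild-type and 0.83 in 3KR MEFs. Pmaip1, the death effector Noxa, rose by 2.05 ± 0.06 and 2.35 ± 0.08, the CDK inhibitor gene Cdkn1a by 1.18 ± 0.03 and 1.34 ± 0.03, and Ccng1, cyclin G, by 1.01 ± 0.03 and 1.35 ± 0.03. Untreated, 11 of the 16 were lower and 2 higher in 3KR MEFs, beside 23.6% and 22.1% of all tested genes. After NCS 8 were lower and 4 higher, beside 23.6% and 22.9%. Leaving out 1 sample at a time gave 9 to 10 lower and 0 to 2 higher untreated, and 6 to 7 lower and 1 to 4 higher after NCS. The higher genes were fewest without untreated 3KR sample 1 (0 by edgeR) and without NCS 3KR sample 2 (1), and were 1 without untreated wild-type sample 2 or 3KR sample 3 and 2 without NCS wild-type sample 3. The response was larger in 3KR MEFs for 6 of the 16 by edgeR, while 1.86% of all tested genes passed as larger and 1.87% as smaller. The response was smaller for 0 of the 16 by edgeR, by DESeq2 or at an unadjusted p under 0.05. With 1 sample left out the larger responses numbered 2 to 7, with 2 left without untreated 3KR sample 1 or 3 or NCS 3KR sample 1, and 3 left without NCS wild-type sample 1 or NCS 3KR sample 3.

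Of 37 tested genes among 38 further targets with functions like those of the 36, 21 rose and 2 fell in wild-type MEFs, and 22 rose and 4 fell in 3KR MEFs, with medians of 0.35 and 0.44. For all tested genes the shares were 14.3% risen and 12.4% fallen in wild-type MEFs, and 15.8% and 15.0% in 3KR MEFs. Without untreated wild-type sample 2, 1 further target fell in wild-type MEFs. Named by the lowest p were Zfp365, which rose by 1.09 ± 0.04 and 1.07 ± 0.04, the mTOR inhibitor Ddit4 (0.76 ± 0.03 and 0.56 ± 0.03) and the peptide transporter Tap1 (1.54 ± 0.07 and 1.27 ± 0.07). Between genotypes 13 were lower and 12 higher in untreated 3KR MEFs, beside 23.6% and 22.1% of all tested genes. After NCS 12 were lower and 11 higher, beside 23.6% and 22.9%. Ddit4 and Tap1 were higher in untreated 3KR MEFs, by 0.66 ± 0.03 and 0.43 ± 0.08, and Zfp365 differed by -0.38 ± 0.05 (edgeR FDR = 6.36e-14, 1.25e-04 and 2.36e-07). Of all tested genes 1.86% passed with a larger and 1.87% with a smaller response in 3KR MEFs. In this list the difference in response passed for 3 genes with a larger and 4 with a smaller value. With 1 sample left out these were 2 to 4 and 1 to 5, with 1 smaller value left without untreated 3KR sample 2 or NCS 3KR sample 3, and 2 left without untreated wild-type sample 2, untreated 3KR sample 1 or 3 or NCS 3KR sample 1.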

How the data were processed

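The RNA-seq libraries (stranded, from mRNA) covered 12 samples, grouped by their labels. The authors deposited raw counts, whole numbers of reads per Ensembl gene without normalization. The submitters' processing notes name TopHat, HTSeq, DESeq and the mm9 build, without versions. Symbols and exon lengths came from GENCODE M21 (GRCm38), where 32919 identifiers were found and 5072 were not.

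Counts were filtered with filterByExpr, scaled by TMM and tested in R 4.3.3 with edgeR 4.0.16 (two-sided quasi-likelihood F test), with 1 coefficient per group and all 12 samples in the fit. Adjusted p-values (FDR) are Benjamini-Hochberg values over 15327 genes, called below 0.05. For normalized counts, each sample was divided by its DESeq2 1.42.0 size factor. Limits for 0 counts cover counting error only. The genes and lists were chosen with earlier results of these data known. Values in every sample are given for the 3 genes per role with the lowest p for NCS in wild-type MEFs, those called for the difference in response, the 3 with the lowest p between genotypes in each treatment, those lower after NCS in both genotypes and those under the filter.

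Same-numbered untreated and NCS samples deviated together in wild-type MEFs (correlations of 0.263, 0.227 and 0.465 over 9649 genes) and not in 3KR MEFs (0.0134, 0.0359 and 0.0126). Differently numbered wild-type samples 1 and 2 gave like correlations (0.221 and 0.235), and number 3 gave -0.361 to -0.296 with both, so the pattern mainly sets number 3 apart. The labels do not say what a number marks. Fits with the number within each genotype as a block are alternatives, and their values stand beside a wild-type result where they change its call. Further alternatives were DESeq2 size factors, the DESeq2 Wald test, other count filters, the 6 samples compared alone, and samples left out.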

Additional observations from a re-analysis of the deposited data

Results flagged for a closer look

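The response to NCS differed between genotypes for 7 genes of the list, by the test of the difference itself (log2 response in 3KR minus that in wild-type MEFs, edgeR FDR of 0.05). The antiproliferative gene Btg2 had a difference of 0.42, the thiamine transporter gene Slc19a2 of 0.41, the receptor gene Eda2r of 0.34, the LIM domain gene Crip2 of 0.21, the nuclease gene Aen of 0.19, the ribosomal protein gene Rps27l of 0.34 and the autophagy gene Dram1 of -0.30. Of all tested genes 1.86% passed with a larger and 1.87% with a smaller response in 3KR MEFs. Crip2, Aen, Dram1 and Rps27l lost the call when certain single samples were left out, and Rps27l also by DESeq2 (FDR = 0.0711). Groups of 3 samples are too small for a test of single outlying samples.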

How the results depend on the processing

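Of 2450 log2 fold changes under an alternative, 62 had the other sign, each for a value that was not called in either fit, and 0 did so for a called value. Of 103 calls of a gene in a comparison, 88 held under every alternative that gave an adjusted p and 15 were lost under at least 1, while 19 of 72 uncalled pairs gained a call under at least 1. Leaving out 1 sample at a time gave 1 to 3 genes lower after NCS in 3KR MEFs, 3 to 5 higher in untreated 3KR MEFs, and 3 to 7 with a larger and 0 to 1 with a smaller response in 3KR MEFs. Without both wild-type samples numbered 3, 2 genes had a smaller response. Sign changes among uncalled values included Xpc after NCS in wild-type MEFs (-0.040 to 0.020 with 1 sample left out), Tigar after NCS in 3KR MEFs (-0.13 to 0.019), and between untreated genotypes Rps27l (-0.11 to 0.030) and Plk3 (0.00073 without both wild-type samples numbered 3). The cause was not tested. With the replicate block, 26 genes rose and 3 fell after NCS in wild-type MEFs, 26 rose and 3 fell in 3KR MEFs, where Ddb2, Sesn2 and Gpx1 gained calls (edgeR FDR = 0.0460, 0.00915 and 0.00352), and 9 had a larger response in 3KR MEFs, Ephx1 and Cep170b being added with Pidd1 (FDR = 0.0310 and 0.0456 for the first pair). With the replicate number as a block, 5 genes were higher and 17 lower in untreated 3KR MEFs. In the wild-type check sample 2 untreated did not correlate best with its own number. Scaling by library totals moved 26 of 144 group means by over 1 SD, and TMM scaling moved 1. Ddb2 and Tnfrsf18, the genes with the fewest counts apart from Ckm, had the widest intervals after NCS.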

Other observations

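Gene length and level were compared with the response to NCS among the 35 genes, without a test. The Spearman correlation of the log2 fold change with the span of the gene was 0.06 in wild-type and -0.05 in 3KR MEFs, and with the RPKM in untreated MEFs 0.14 and 0.13. These are descriptions across genes, which share libraries and are not independent replicates.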
